A study of Mus musculus with 12 samples.

Results

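The subject here is the set of 33 genes that build or govern epithelial cell contacts: 3 adhesion genes, 13 claudins, 7 other tight junction and polarity genes, 6 keratin and desmosome genes, and 4 epithelial regulators and proteases. They were chosen by name, and each was found on the array through the accession of its probes. All 33 had a probe (49 probes in all), and 32 had a probe bright enough to test (43 probes), out of 12647 tested genes. *Crb3*, an apical polarity gene, was not well above background on any array in either genotype and has no value here.

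The kidneys came from C57BL/6 mouse embryos at embryonic day 14.5. BdkrB2 null kidneys lacked the bradykinin B2 receptor, and BdkrB2 WT kidneys carried it. Embryos of both genotypes came from heterozygous parents, and the mothers ate food with 5% sodium, so no kidney without gestational high salt was measured. Total RNA of the genotypes was hybridised on the same two-colour arrays, with null in Cy5 and WT in Cy3 in 3 replicates (null/WT) and the dyes exchanged in another 3 (WT/null). Each replicate was run on 2 arrays, and these 12 arrays gave 6 replicate values per probe. A null/WT and a WT/null replicate with the same number shared a slide and deviated together, so they are called pair 1, pair 2 and pair 3. The design text calls the replicates biological, but nothing says how many embryos a sample held or whether both members of a pair came from separate RNA. The p-values of the null over WT fit measure the spread between these 6 replicates, part of which may be technical. The F test among pairs, used below, judges the pairs against the spread between dye orientations within a pair. That spread may be technical alone.

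Tight junctions seal the space between neighbouring epithelial cells. Claudins set which ions pass there, and along the nephron each segment makes its own combination of them. Adherens junctions and desmosomes hold the cells together, and keratin filaments anchor to the desmosomes. At this age the kidney holds ureteric epithelium, forming nephrons and mesenchyme. A whole kidney was measured, so fewer cells of a type and less RNA per cell cannot be told apart.

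As a check of what could be seen, 26 of the 32 tested genes were well above background in both genotypes on all 12 arrays. Array quality was uneven. The first WT/null array of pair 3 had an SD of log2 ratios of 0.38, against 0.16 to 0.26 on the others, and it correlated with its duplicate at 0.711, against 0.824 to 0.923 between the duplicates of the other replicates. Pair 3 values are therefore also given without that array for several claudins, *Cdh16*, *Cdh1* and some gene lists. Other values of pair 3 include it.

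The claudin genes *Cldn2*, *Cldn10* and *Cldn16* carried much of the variation described below, and for that reason their upstream regions are shown first. The windows are the 250 bases before the annotated start, 5′ to 3′ on the gene's own strand, from RefSeq on GRCm38.p6. Capitals mark a TATA box (TATAAA) in *Cldn2* and a half-site for the tubule factor HNF1 (GTTAAT, here on the opposite strand as ATTAAC) in *Cldn10*. None of the searched motifs lies in the *Cldn16* window.
Cldn2, chrX:139800558-139800807: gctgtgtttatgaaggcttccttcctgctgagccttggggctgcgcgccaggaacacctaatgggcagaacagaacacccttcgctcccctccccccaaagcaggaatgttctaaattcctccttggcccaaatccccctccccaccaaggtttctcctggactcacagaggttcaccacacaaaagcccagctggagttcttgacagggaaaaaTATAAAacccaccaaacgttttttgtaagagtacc
Cldn10, chr14:118787621-118787870: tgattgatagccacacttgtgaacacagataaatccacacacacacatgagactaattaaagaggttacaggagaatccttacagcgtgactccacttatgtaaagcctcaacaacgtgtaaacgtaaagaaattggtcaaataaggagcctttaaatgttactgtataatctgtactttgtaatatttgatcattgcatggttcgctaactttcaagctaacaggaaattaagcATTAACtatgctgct
Cldn16, chr16:26462885-26463134: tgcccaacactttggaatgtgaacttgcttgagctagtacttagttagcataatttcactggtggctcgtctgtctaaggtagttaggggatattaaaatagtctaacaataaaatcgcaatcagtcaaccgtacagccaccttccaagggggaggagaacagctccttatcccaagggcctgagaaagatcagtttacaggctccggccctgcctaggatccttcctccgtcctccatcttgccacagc
The TATA box starts 35 bases before the start of *Cldn2*, and the HNF1 half-site 15 bases before that of *Cldn10*. A second annotated *Cldn10* start, with the window chr14:118854700-118854949, had neither. Windows were found for 26 of the 33 genes, and *Cldn8* was not among them. The HNF1 half-site, searched on both strands, was in 3 of the 26 (*Cldn1*, *Cldn10* and *Spint1*), against 7.49% of all genes with a window. TATAAA was in 2 (*Cldn2* and *Pard3*), against 14.3%. The grainyhead motif AACNGGTT, named for the family of *Grhl2*, was in 0 of the 26, against 2.00%. The E-box CACCTG, the letters that Snail and Zeb repressors bind, was in 13 of the 26, against 19.4%. A match describes these letters in this window and is not a measured binding site.

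Taken over all 6 replicates, the junction and keratin genes differed little between null and WT kidneys. No gene passed the threshold, a limma adjusted p under 0.05 over all 22979 tested probes. The same threshold called 0.0392% of all probes and 0.0237% of all genes. Of the 32 genes, 23 stood higher and 9 lower in null kidneys, with a median log2 ratio of 0.02, against -0.003 for all tested genes, of which 48.1% stood higher. The direction count depends on the scaling: when arrays were centred on the median and not by loess, 31 of the 32 stood higher, while the median of all tested probes itself moved to 0.14. *Dsp* was the single gene with an unadjusted p under 0.05, which 7.78% of all genes had. For 24 genes the fitted ratio lay within 0.1 of 0 on the log2 scale, and for 30 within 0.25. The 95% interval of the difference lay between -0.3 and 0.3 for 25 of them, so larger mean differences than that lie outside their intervals. These intervals take the 6 replicate values as independent, although those of a pair deviated together, so they may be too narrow. None of the 32 genes had the same sign in all 6 replicates by its brightest probe, which 3.04% of all tested genes had.

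**Figure D1:**
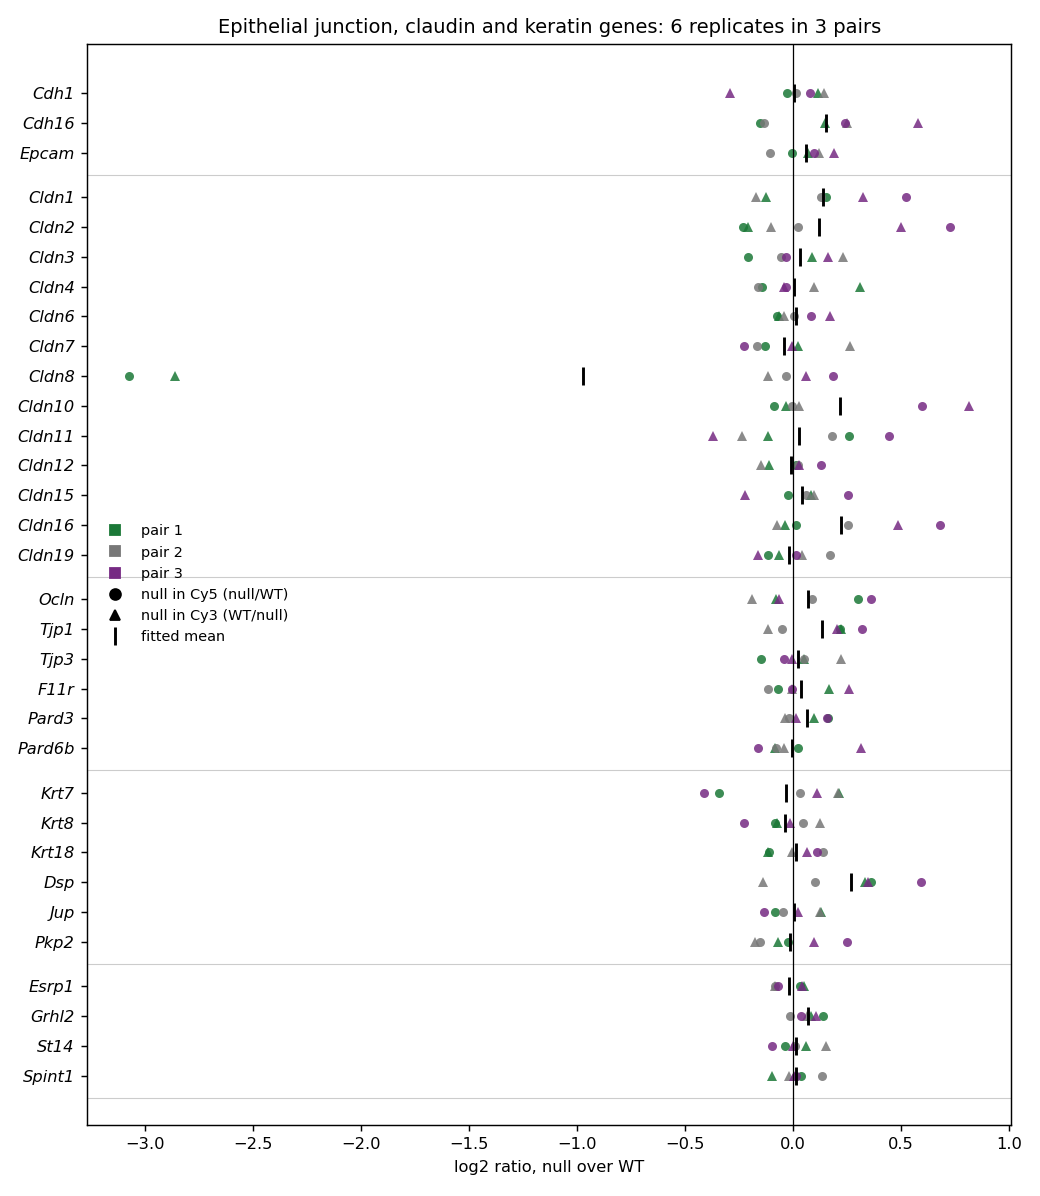
Log2 ratio of null over WT (horizontal axis) for the 32 tested genes, grouped by role. Points are the 6 replicates, coloured by pair, circles with null in Cy5 and triangles with null in Cy3, and black bars are fitted means. Most points lie near 0, Cldn8 lies near -3 in pair 1 alone, and Cldn2, Cldn10 and Cldn16 lie highest in pair 3.

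Among the adhesion genes, *Cdh16* (chromosome 8), the kidney-specific cadherin, varied most. Its log2 ratio of null over WT was -0.15, -0.14 and 0.24 in null/WT replicates 1, 2 and 3, and 0.15, 0.25 and 0.58 in the WT/null replicates. Both orientations were highest in pair 3, and pairs 1 and 2 held both signs. Its mean of 0.15 ± 0.07 (SE, n = 6 replicates) did not pass (limma adjusted p = 0.710). *Epcam*, a surface adhesion protein of epithelia, stood at -0.003, -0.10 and 0.10 in the null/WT replicates and at 0.07, 0.12 and 0.19 in the WT/null replicates, with a mean of 0.06 ± 0.04. *Cdh1*, E-cadherin, had -0.03, 0.01 and 0.08 in the null/WT replicates and 0.11, 0.15 and -0.29 in the WT/null replicates. Its mean was 0.01 ± 0.06 (95% interval -0.14 to 0.15). That interval holds for a single dim probe under this processing, with the 6 replicate values taken as independent. By pair *Cdh1* gave 0.04, 0.08 and -0.11, and pair 3 gave 0.05 without the first WT/null array. By the scanner's log ratios the pairs gave 0.10, 0.12 and 0.14. The mean log2 signal was 6.93 in null and 6.92 in WT kidneys. The probe was well above background in 11 null and 12 WT channels of 12.

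*Cldn8* (chromosome 16, probe A_52_P549190) had by far the widest spread of the set. It encodes a barrier claudin of the distal nephron and collecting duct. Its log2 signal in null kidneys was 7.60, 9.85 and 9.70 in null/WT replicates 1, 2 and 3 and 7.86, 9.81 and 9.58 in the WT/null replicates. In WT kidneys it was 10.67, 9.89 and 9.51 in the null/WT replicates and 10.71, 9.92 and 9.52 in the WT/null replicates. The null sample of pair 1 was thus the lowest and the WT sample of pair 1 the highest, while in pairs 2 and 3 the genotypes lay between 9.51 and 9.92. All 12 arrays had this probe well above background in both channels.

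In pair 1 *Cldn8* was 7.80-fold lower in null kidneys, a mean log2 ratio of -2.96. The 4 arrays of that pair gave -3.07, -3.07, -2.72 and -3.00, so the difference was present with either dye. In pairs 2 and 3 the ratio was -0.07 and 0.12. The ratios differed among pairs (limma F test over all tested probes, adjusted p = 0.000881), and *Cldn8* had the second lowest value in pair 1 of all 12647 tested genes (rank 2). Only *Rec8*, a meiotic cohesin gene, was lower there, at -3.67, and 10 tested genes lay below -1.

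Over all replicates *Cldn8* averaged -0.97 ± 0.50 (SE, n = 6 replicates in 3 pairs), which did not pass (limma adjusted p = 0.710). It did pass with a replicate block for the pairs (limma adjusted p = 0.00076), since a block judges the mean of these 3 pairs against the spread within them. With 1 value per pair it did not (limma adjusted p = 0.904). Without pair 1 the mean was 0.03, so the mean rests on that pair.

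Other genes of the collecting duct gave small ratios in pair 1. In that pair, *Cldn4*, its partner in the chloride pathway of the collecting duct, stood at 0.08, and *Cldn7*, which the same epithelium makes, at -0.05. The 15 tested markers of ureteric trunk and collecting duct had a median of 0.03. Their mean log2 level was 8.75 in null and 8.73 in WT kidneys.

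*Cldn8* lies among 30 tested neighbours on chromosome 16, 15 on each side, which were looked at after its value was seen. In pair 1, 28 of the 30 lay between -0.15 and 0.33 on the log2 scale. The other two were *Hunk*, a kinase gene 5 tested genes away, which was higher in null at 3.52, 2.64 and 0.02 in pairs 1, 2 and 3, and *Adamts1*, at -0.58, 0.26 and 0.34. The nearest tested genes were *Bach1*, at 0.05, -0.04 and -0.05, and *Krtap19-1*, at 0.06, -0.04 and -0.09. A large difference confined to 1 or 2 pairs was thus seen at *Cldn8* and at *Hunk*, and the genes between them stayed within 0.5 of 0 in every pair.

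**Figure D2:**
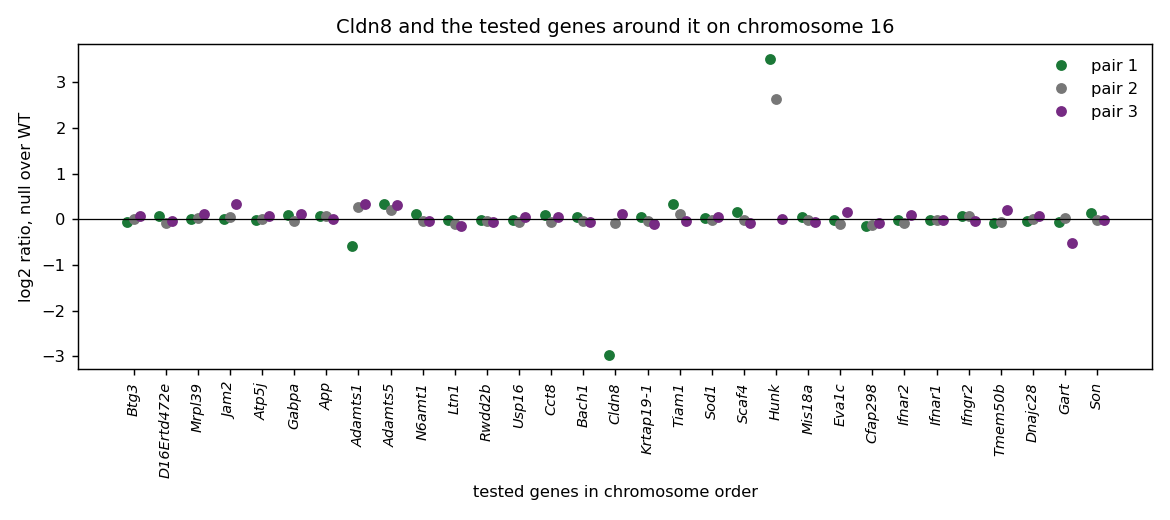
Log2 ratio of null over WT (vertical axis) in pairs 1, 2 and 3 for Cldn8 and the 15 tested genes on each side of it, in chromosome order (horizontal axis, not to distance). Cldn8 lies near -3 in pair 1 alone, Hunk lies at 3.52 and 2.64 in pairs 1 and 2, and nearly all other points lie within 0.5 of 0.

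**Figure D3:**
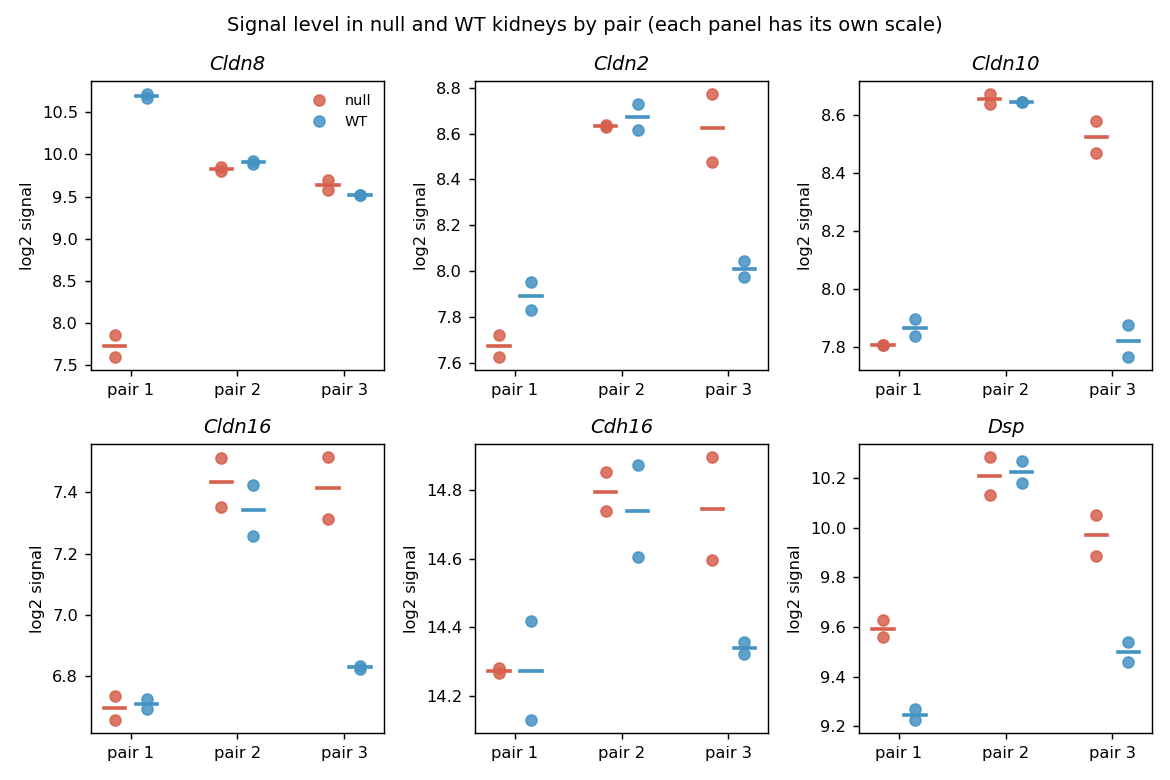
Log2 signal (vertical axis, own scale in each panel) of 6 genes in null kidneys (red, left) and WT kidneys (blue, right) of each pair. Points are the replicate values of the pair, 1 per dye orientation, and bars are their means. Null Cldn8 stands apart in pair 1, while Cldn2, Cldn10, Cldn16 and Cdh16 are low in WT kidneys of pair 3 and in both genotypes of pair 1.

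*Cldn2*, *Cldn10* and *Cldn16* stood higher in null kidneys in pair 3 and near WT in pair 2. *Cldn2* forms a cation pore in the proximal tubule, *Cldn10* has pore-forming isoforms in the proximal tubule and the thick ascending limb, and *Cldn16* serves magnesium and calcium uptake in the thick ascending limb. They were the 3 of 32 genes with a log2 ratio over 0.5 in pair 3, which 1.52% of all tested genes had. The F test among pairs called *Cldn10* and *Cldn2* beside *Cldn8*, 3 of the 32 genes, against 1.67% of all tested genes and 1.48% of all tested probes.

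*Cldn10* (chromosome 14) had a log2 signal in null kidneys of 7.81, 8.64 and 8.47 in null/WT replicates 1, 2 and 3 and of 7.81, 8.67 and 8.58 in the WT/null replicates. In WT kidneys it had 7.89, 8.65 and 7.87, and 7.84, 8.64 and 7.76. Both genotypes were low in pair 1 and high in pair 2, and only in pair 3 did they part, with null high and WT low. The log2 ratio was -0.06, 0.01 and 0.71 in pairs 1, 2 and 3, a 1.63-fold difference in pair 3 (limma F test among pairs, adjusted p = 0.0305). Its mean over all replicates was 0.22 ± 0.13 (limma adjusted p = 0.721).

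The levels of *Cldn2* (X chromosome) followed the same course. Null kidneys had 7.72, 8.64 and 8.77 in null/WT replicates 1, 2 and 3 and 7.62, 8.63 and 8.47 in the WT/null replicates. WT kidneys had 7.95, 8.62 and 8.04, and 7.83, 8.73 and 7.98. The genotypes overlapped over all pairs, and in pair 3 every null value lay above every WT value. The ratio was -0.22, -0.04 and 0.61 by pair (limma F test among pairs, adjusted p = 0.0330), and the mean 0.12 ± 0.13 (limma adjusted p = 0.780).

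*Cldn16* (chromosome 16) stood at log2 signals of 6.74, 7.51 and 7.52, and 6.66, 7.35 and 7.31, in null kidneys. WT kidneys had 6.72, 7.26 and 6.83, and 6.70, 7.42 and 6.83. The order of the samples was again low in pair 1, high in pair 2 and divided in pair 3. Its ratio by pair was -0.01, 0.09 and 0.58, which missed the threshold of the F test (limma adjusted p = 0.0744). By the scanner's log ratios the value of pair 3 was 1.44 and the F test passed (limma adjusted p = 0.0495). By the authors' deposited log ratios the value was also 1.44, but the F test did not pass (limma adjusted p = 0.0515). The mean was 0.22 ± 0.10 (limma adjusted p = 0.710).

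Among the genes next in the F test, *Cldn1*, a barrier claudin that also marks the parietal epithelium of the glomerulus, had ratios of 0.15, 0.13 and 0.52 in the null/WT replicates and of -0.13, -0.17 and 0.32 in the WT/null replicates. By pair that gave 0.01, -0.02 and 0.42 (limma F test, adjusted p = 0.0820). *Cdh16* had pair values of -0.0002, 0.06 and 0.41 (adjusted p = 0.0995). As with the claudins above, the value of pair 3 stood apart from the other pairs.

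Without the first WT/null array, pair 3 gave 0.64 for *Cldn2*, 0.67 for *Cldn10*, 0.63 for *Cldn16*, 0.38 for *Cldn1* and 0.42 for *Cdh16*. The F test then called 7 of the 32 genes, now with *Cldn16*, *Cldn1*, *Cdh16* and *Dsp*, but its share over all probes was also higher, at 6.73%. Without pair 3 the mean over the other replicates was -0.13 for *Cldn2*, -0.02 for *Cldn10* and -0.003 for *Cldn1*. The calls of *Cldn2* and *Cldn10* are near the threshold: without a filter on dim probes their limma adjusted p was 0.0675 and 0.0621, and from the authors' deposited log ratios it was 0.0524 for *Cldn2*.

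Markers of the maturing tubule moved the same way in the same samples. Of 13 listed proximal tubule genes 11 were tested, and all 11 were higher in null in pair 3, against 49.2% of all tested genes. The list medians were -0.04, 0.06 and 0.67 in pairs 1, 2 and 3. The mean log2 level of that list was 7.75, 8.91 and 8.77 in null kidneys of pairs 1, 2 and 3 and 7.75, 8.78 and 7.99 in WT kidneys. *Fbp1*, whose enzyme serves gluconeogenesis, had -0.08, 0.57 and 2.25 by pair, and *Aqp1* was not above background on any array. *Lrp2*, the megalin gene, stood at 0.30, 0.62 and 0.91, and *Dab2*, its adaptor, at 0.10, 0.08 and 0.31.

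Of 12 listed genes of the loop of Henle and distal tubule, 10 were tested. In pair 3, 9 were higher, against 49.2% of all tested genes, and the medians by pair were 0.05, 0.07 and 0.60. The mean level of the list was 8.48, 9.34 and 9.32 in null kidneys and 8.45, 9.24 and 8.60 in WT kidneys. *Slc12a3* was not above background. *Spp1*, the osteopontin gene, stood at 0.07, 0.42 and 1.39, *Sostdc1* at 0.12, 0.06 and 0.81, and *Irx2* at 0.05, 0.04 and 0.36. The part of segment makeup in the claudin differences was not tested.

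Skeletal muscle transcripts also moved with pair 3. Of 8 listed muscle genes 7 were tested and all 7 were higher in null there, against 49.2% of all tested genes. The medians were 0.14, 0.41 and 2.16 by pair. The summed list, as a mean log2 level, ranged over 7.17 to 9.14 in null samples and 7.10 to 7.43 in WT samples, and each listed gene was above background on at least 1 array. *Myh8*, a fetal myosin gene, stood at 0.17, 0.75 and 2.16, *Tnnc2* at 0.24, 0.59 and 2.32, and *Myog* at -0.01, 0.48 and 0.42. Without the first WT/null array the medians of pair 3 were 2.19 for muscle, 0.77 for proximal tubule and 0.59 for loop genes. The part of such tissue in the claudin values was not tested.

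**Figure D4:**
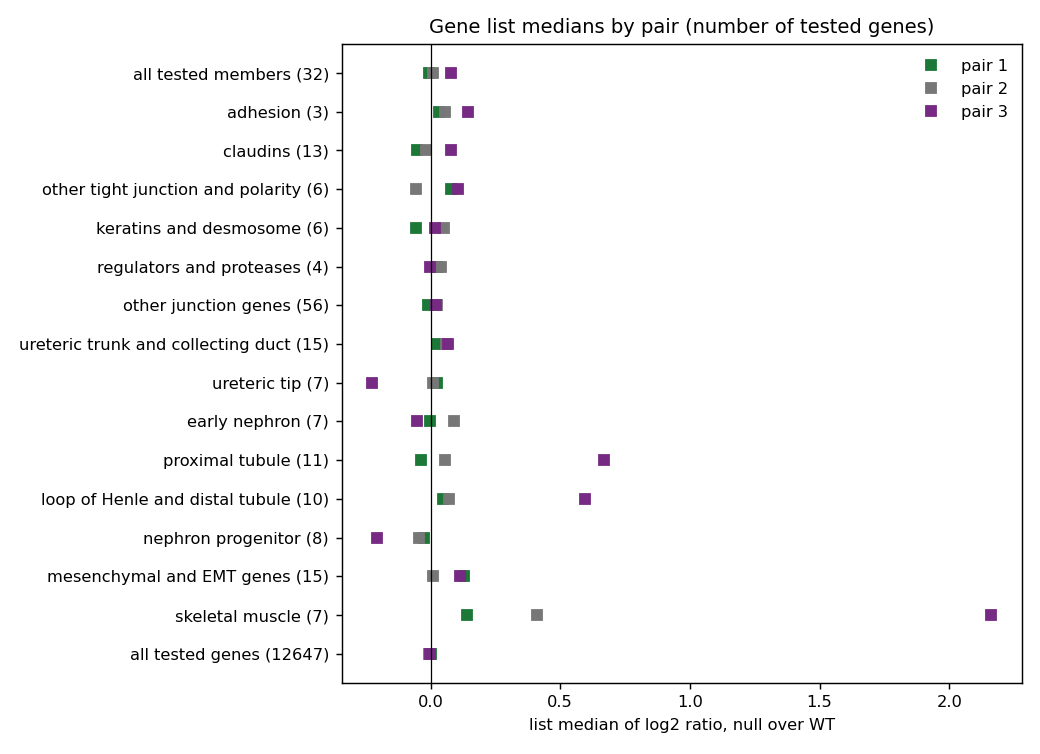
Median log2 ratio of null over WT (horizontal axis) in pairs 1, 2 and 3 for gene lists, with the number of tested genes in brackets. The junction lists lie between -0.06 and 0.14 in all pairs, highest for adhesion genes in pair 3. The proximal tubule, loop and skeletal muscle lists reach 0.67, 0.60 and 2.16 in pair 3.

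The remaining claudins gave smaller values. *Cldn3*, *Cldn4* and *Cldn7*, barrier claudins of ureteric and distal epithelium, averaged 0.03 ± 0.04, 0.004 ± 0.05 and -0.04 ± 0.05. *Cldn6*, an embryonic claudin, stood at 0.01 ± 0.05. *Cldn19*, the partner of *Cldn16* in the thick ascending limb, gave -0.02 ± 0.05, and a second probe gave -0.02 as well. In pair 3 its brighter probe gave -0.07, or 0.06 without the first WT/null array. *Cldn15*, a cation pore best known from the intestine, stood at 0.04 ± 0.06, *Cldn12* at -0.01 ± 0.04 and *Cldn11*, known from myelin and the testis, at 0.03 ± 0.05. By pair, the 13 claudins had medians of -0.05, -0.02 and 0.08, and 10 of 13 were higher in null in pair 3, when 49.2% of all tested genes were. In pairs 1 and 2 the counts were 4 and 6 of 13, against 51.9% and 47.2% of all genes. Without the first WT/null array, the pair 3 median of the claudins was 0.12. Then 11 of 13 were higher, against 6702 of 12641 tested genes.

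For the tight junction plaque, *Tjp1*, the ZO-1 scaffold that ties claudins to actin, varied most. Its log2 ratio was 0.22, -0.05 and 0.32 in null/WT replicates 1, 2 and 3 and 0.22, -0.12 and 0.20 in the WT/null replicates. Pairs 1 and 3 were above 0 in both orientations and pair 2 below it. The mean was 0.13 ± 0.07 (limma adjusted p = 0.710), and a second, dimmer probe gave 0.14 ± 0.09. By pair the second probe gave -0.003, 0.007 and 0.43, so it did not repeat that course. Its highest value, 0.65, was in WT/null replicate 3.

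*Ocln*, occludin, stood at 0.30, 0.09 and 0.36 in the null/WT replicates and at -0.08, -0.19 and -0.07 in the WT/null replicates. The sign thus followed the dye and not the genotype. The dye term passed for 4 of 43 probes of the set, against 3091 of all 22979 tested probes. The 4 were those of *Ocln* and *Cldn11*, and 1 probe each of *Krt8* and *Cldn19*. With the dye term the *Ocln* mean was 0.07 ± 0.05 (limma adjusted p = 0.729). *Pard3*, a scaffold of apical polarity, had 0.16, -0.02 and 0.16 in the null/WT replicates and 0.10, -0.04 and 0.01 in the WT/null replicates, a mean of 0.06 ± 0.04. Its 4 tested probes ranged over -0.09 to 0.12 and held both signs. *Tjp3* (ZO-3), *F11r* (JAM-A) and *Pard6b*, the partner of *Pard3*, averaged 0.02, 0.04 and -0.005. None of these 3 had an unadjusted p under 0.05.

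In the desmosome, *Dsp*, desmoplakin, which links keratin filaments to the desmosome, had the smallest p of the set. Its brightest probe (A_51_P101460, chromosome 13) gave 0.36, 0.10 and 0.59 in null/WT replicates 1, 2 and 3 and 0.33, -0.14 and 0.35 in the WT/null replicates, higher in 5 of 6. A second bright probe (A_52_P242544) gave 0.29, 0.19 and 0.39, and 0.23, 0.01 and 0.26, higher in 6 of 6. The values of pair 2 were the lowest by both probes.

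The log2 level of *Dsp* in null kidneys was 9.63, 10.29 and 10.05, and 9.56, 10.13 and 9.89. In WT kidneys it was 9.27, 10.18 and 9.46, and 9.23, 10.27 and 9.54. The genotypes overlapped because both were high in pair 2, while null was the higher in pairs 1 and 3. The mean was 0.27 ± 0.08 (1.20-fold) by the first probe and 0.23 ± 0.05 by the second, and neither passed (limma adjusted p = 0.612 and 0.380). Under the replicate block both passed narrowly (limma adjusted p = 0.0441 and 0.0448), and with 1 value per pair neither did (limma adjusted p = 0.904 for both). The block called 1.28% of all probes and 2 of the 32 genes by their brightest probe, *Cldn8* and *Dsp*. Another *Dsp* probe, near background, gave -0.05 ± 0.05. Without pair 3 the mean of the first probe was 0.16, and without pair 2 it was 0.41.

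The other genes of this group stood closer to 0. *Krt8* and *Krt18*, the keratin pair of simple epithelia, were well above background in both genotypes on all 12 arrays. *Krt8* had -0.08, 0.05 and -0.23 in the null/WT replicates and -0.07, 0.12 and -0.01 in the WT/null replicates, a mean of -0.04 ± 0.05, while its second probe gave 0.03 ± 0.04. *Krt18* averaged 0.01 ± 0.05. *Krt7*, a keratin of ureteric and collecting duct epithelium, had -0.34, 0.03 and -0.41 in the null/WT replicates against 0.21, 0.21 and 0.11 in the WT/null replicates, so its signs differed by orientation in pairs 1 and 3 and its mean was -0.03 ± 0.06. *Jup*, plakoglobin, averaged 0.003 ± 0.04 and *Pkp2*, plakophilin, -0.01 ± 0.06. For *Krt8* and *Krt18* the 95% intervals were -0.15 to 0.08 and -0.10 to 0.13, with the 6 replicate values taken as independent.

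The epithelial regulators and proteases gave small values. *Grhl2*, a transcription factor that drives junction genes, stood at 0.14, -0.01 and 0.04 in the null/WT replicates and at 0.09, 0.06 and 0.10 in the WT/null replicates, a mean of 0.07 ± 0.04 (limma adjusted p = 0.720). Its dimmer second probe gave -0.08 ± 0.05. *Esrp1*, the epithelial splicing regulator, had 0.03, -0.09 and -0.07 in the null/WT replicates and 0.05, -0.09 and 0.04 in the WT/null replicates, and was well above background in 5 null and 6 WT channels of 12. *St14*, the membrane protease matriptase, had -0.04, 0.01 and -0.10, and 0.06, 0.15 and -0.001. *Spint1*, the inhibitor of matriptase, averaged 0.01 ± 0.04, and the second probes of *St14* and *Spint1* had the opposite sign, at -0.09 ± 0.10 and -0.05 ± 0.07. In all, 8 genes had several tested probes and 6 of them had probes of opposite sign.

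Of 64 further junction, keratin and epithelial genes, 56 were tested, and none passed the threshold in either direction. Of these 30 stood higher and 26 lower in null kidneys, with a median of 0.009, and 5 had an unadjusted p under 0.05. The 3 with the smallest p were *Cgnl1*, which encodes the junction protein paracingulin (0.13 ± 0.05), the basal keratin gene *Krt5* (0.24 ± 0.08, near background in WT) and *Tmprss2*, a membrane protease gene (0.16 ± 0.06). The F test among pairs called 0 of the 56, and 15 had an unadjusted p under 0.05 in it, which is 26.8%, against 19.8% of all tested genes. *Cldn18* and *Cldn22* were not above background on any array.

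Set beside the epithelial genes, mesenchymal and EMT genes stood higher more often. Of 16 listed, 15 were tested, 14 stood higher in null (48.1% of all tested genes did) and 0 passed, with a median of 0.11. An unadjusted p under 0.05 was found for 7 of them, and for 7.78% of all tested genes. *Col1a1* and *Col3a1*, the main fibrillar collagens, stood at 0.30 ± 0.06 and 0.22 ± 0.05, and *Pdgfrb*, a receptor of stroma and pericytes, at 0.15 ± 0.05. In pairs 1, 2 and 3 the medians were -0.006, 0.009 and 0.08 for the 32 junction and keratin genes, against 0.13, 0.008 and 0.11 for the mesenchymal list. No difference between these lists was tested.

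The ureteric trunk list overlaps in cell type with many of these genes, and its water channel genes were among those that moved with pair 3. *Aqp3* stood at 0.17, 0.28 and 1.03 by pair, *Aqp2* at 0.03, 0.21 and 0.79, and *Tfcp2l1*, a collecting duct transcription factor, at 0.14, 0.07 and 0.21. The list median was 0.03, 0.06 and 0.07. In pair 3, 8 of its 15 tested genes were higher, against 49.2% of all tested genes. Those lower there included *Upk3b* at -0.37 and *Hsd11b2* at -0.34. Ureteric tip genes had medians of 0.03, 0.008 and -0.22, and *Ret*, their defining receptor, was not above background on any array. Nephron progenitor genes had medians of -0.02, -0.04 and -0.21.

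The mean of the 32 genes was -0.11, 0.01 and 0.14 in null/WT replicates 1, 2 and 3 and -0.06, 0.01 and 0.12 in the WT/null replicates, and *Cldn8* weighs heavily in the values of pair 1. The other genes whose 6 replicate values correlated most with that mean were *Thg1l* (r = 0.988), *Sla*, *Htra3*, *Cbr3* and *Hdc* (r = 0.985), picked from all tested genes and given without a test.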

How the data were processed

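The 12 scanner files held median spot and background intensity per dye, deposited without further normalization, per the file headers. They also held the scanner's log10 ratios. Per the file headers these came from version 10.5.1.1 of Agilent's Feature Extraction, while the submitters' processing notes name 6.1. The files further held other flags for background, saturation and outliers, per the file headers. The deposited value table held log10 ratios set by the authors to the direction null over WT: its columns correlated with the scanner's at 0.998 to 0.999 with slopes of 1.00, which settled scale and direction, and had medians of -0.0223 to 0.00645. How the authors left entries blank in it is unknown. Every column had a sample (0 without).

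From the intensities, background was corrected with normexp (offset 50), log2 ratios were normalized by loess within arrays with control and outlier spots (101 to 262 per array) at weight 0, spots of a probe and then the 2 arrays of a replicate were averaged. Of 41174 probes, 22979 were tested, those well above background in the null or WT channel on at least 6 of 12 arrays. A RefSeq gene table (GRCm38.p6) named 25097 probes by accession, and it differs from the array's mm9, so positions are printed only for the RefSeq windows, on GRCm38.p6, and not for probes or genes. Each gene is represented by its brightest tested probe. Levels are log2 signals after loess and Aquantile scaling and are not compared between probes.

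limma 3.58.1 in R 4.3.3 fitted genotype and dye, and the F test fitted the replicate number and dye, with Benjamini-Hochberg adjustment over all tested probes. Every adjusted p is from limma. The number of independent samples, which is unknown, limits the precision. The median standard error over 6 replicate values was 0.0506, with the values taken as independent. Replicates that share a number deviated together (correlations of 0.587, 0.517 and 0.413 in pairs 1, 2 and 3) on a shared slide of 4 arrays, so numbers were treated as pairs. Both tests were run on simulated data whose replicates varied independently around the dye effect. Apart from the planted changes, the simulation held no deviation shared within pairs. It therefore does not check the null over WT fit under such deviations. The genes, lists and tests were chosen with earlier results of these data known. All tested genes of the set are named. Replicate values are given for up to 3 per role by p and for the 8 with the smallest p in the F test, and up to 3 genes are named for the other junction genes and for each cell type list that is described. The lists of early nephron, podocyte, liver, adrenal, mesothelium, endothelium, leukocytes, erythroid cells and neurons are given in the closing section. Alternatives were another background and scaling, the authors' table, filters, pair terms, and left-out replicates, pairs and 1 array.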

Additional observations from a re-analysis of the deposited data

Results flagged for a closer look

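The null over WT difference of 3 claudins was unequal among the pairs by the limma F test over all tested probes. That test judges the pairs against the spread between dye orientations within a pair, which may be technical. *Cldn8* was lower in null kidneys in pair 1 alone (log2 -2.96, -0.07 and 0.12 in pairs 1, 2 and 3, adjusted p = 0.000881). *Cldn10* was higher in pair 3 alone (-0.06, 0.01 and 0.71, adjusted p = 0.0305), as was *Cldn2* (-0.22, -0.04 and 0.61, adjusted p = 0.0330). With 3 replicates per dye orientation, single samples were not tested as outliers.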

How the results depend on the processing

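No junction or keratin gene passed for null over WT under any alternative except the replicate block, under which 2 did (*Cldn8* and *Dsp*). Over all probes 9 passed, against 295 with the replicate block, 4 with 1 value per pair, 148 with 12 arrays and an estimated duplicate correlation, and 15 without the first WT/null array of pair 3. The count was 3 without pair 2, 62 without pair 3, and 5 to 12 with 1 replicate left out. The 1 value per pair and the random block were added after seeing the data, as were the pair values below as results. The F test among pairs called 3 of the genes, against 22 with median centring, 1 without a filter on dim probes, 8 of 26 with the strictest filter and 7 without that first array. The share of all probes it called moved too, from 1.48% to 49.8%, 0.413%, 12.6% and 6.73% in that order. It was not run with replicates left out. Median centring moves all genes: their median became 0.39, -0.09 and 0.22 in pairs 1, 2 and 3, and that of the 32 genes over all replicates 0.203. *Cldn8* in pair 1 stood at -2.59 with median centring, and at -3.60 by the scanner's and by the authors' log ratios. *Cldn2* in pair 3 stood at 0.828 with median centring, 0.775 by the scanner's and 0.776 by the authors' log ratios. *Cldn10* in pair 3 stood at 0.898, 0.889 and 0.889 under these, and *Cldn16* at 0.798, 1.44 and 1.44. The cause of these shifts was not tested. Of 666 values of single genes under alternatives, 645 stayed uncalled and within 1 SD of the replicates of the main value, 19 moved by more and 2 came to pass, those of *Cldn8* and *Dsp* under the block. That SD includes dye and pair differences and is a wide limit. *Cldn8* without pair 1 (0.03) and *Cldn2* without pair 3 (-0.13) changed sign and still lay within it. The sign changed for 78 of the 666, of which 5 were over 0.1 in size in the main values. *Crb3*, and 5 probes of other genes of the set, were too near background to test.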

Other observations

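The lists of other cell types were described in the same way, and the part of sample makeup in their values was not tested. In pairs 1, 2 and 3 the medians were -0.004, 0.09 and -0.05 for early nephron genes, 0.03, 0.05 and 0.12 for podocytes, 0.01, 0.05 and 0.26 for liver, and 0.10, 0.04 and 0.19 for endothelium. They were -0.003, 0.01 and -0.08 for adrenal genes, -0.03, 0.10 and 0.11 for mesothelium, 0.04, 0.02 and 0.28 for leukocytes, -0.24, -0.02 and 0.19 for erythroid cells and 0.05, -0.08 and -0.10 for neurons. Of 7 tested early nephron genes, 4 stood higher and 3 lower in null kidneys over all replicates. In pair 3, 3 of the 7 were higher, and *Wnt4* stood at -0.33. *Jag1*, a Notch ligand of the early nephron, stood at 0.16 ± 0.04, higher in 6 of 6 replicates (limma adjusted p = 0.500). *Nphs1*, the nephrin gene, stood at 0.20 ± 0.08 (limma adjusted p = 0.700).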
